A study of Mus musculus with 7 samples.

Results

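Spleen transcripts of 7 genes, Ifi202b, Ccnb1ip1, Emp1, Hebp1, Rpgrip1, Sash1 and C1qtnf12, differed by a wide step between syngeneic and allogeneic recipients of a splenocyte transplant. They are 7 of the 12394 genes with a probe set of their own on the array, and all 13 of their probe sets are described. The genes were selected on these same signals, because a probe set of each was near background in either syngeneic or allogeneic recipients and similar on the 6 allogeneic arrays. The step itself, and the likeness of the 3 allogeneic groups, therefore describe the choice and were not tested. Ifi202b, Ccnb1ip1 and Emp1 were higher after allogeneic transplantation with a control antibody (isotype), by 12.1-fold to 16.4-fold on a log2(signal + 50) scale. Hebp1, Rpgrip1, Sash1 and C1qtnf12 were lower there, by 11-fold to 21.8-fold at the probe set with the widest step. Adding 50 understates a fold where a signal is near background, so these folds do not rank the genes. A search for an on-off pattern, with the low side below the 40th percentile of all signals, was met by 4 of the 7 genes. Over all 12394 genes it was met by 24 (0.194%), and the count among the 7 follows from their choice. Of the C1qtnf12 probe sets, 1439422_a_at alone met it. Hebp1, Rpgrip1 and Sash1 did not meet the pattern, since some or all of their allogeneic signals stayed above that level, so "on-off" goes against the data there.

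All recipients were female C57BL/6 (B6) mice aged 9 to 12 weeks that received 10.0 Gy of irradiation and donor splenocytes 4 to 6 h later, with spleen cells taken on day 4. The syngeneic group (1 array) received B6 splenocytes and, per the labels, no antibody is named for it. The allogeneic groups received splenocytes of C3H/HeN donors and either a control rat IgG (isotype, 2 arrays) or an antibody against ICOSL, the ligand of the T cell costimulator ICOS, from day 0 (2 arrays) or from day 3 (2 arrays). The antibody was given at 500 µg and then at 200 µg every other day, and the start day of the isotype antibody is not stated. Each group held 4 mice per experiment, and pooled RNA of each allogeneic group was put onto 2 arrays. P-values therefore measure only the spread between arrays, which may be technical. The allogeneic spleens differ from the syngeneic one in donor strain, in the response to a foreign host and in the antibody given, and these cannot be told apart. An irradiated host keeps some cells of its own, so both B6 and C3H/HeN transcripts can be present in an allogeneic spleen. In RNA of a whole cell suspension, fewer cells of a type and less RNA per cell cannot be told apart either.

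Inbred mouse strains differ by many inherited variants, some of which set the level of a transcript or its binding to a probe alike in every animal of a strain. Activated T cells, interferon and changing cell numbers also move many spleen transcripts after an allogeneic transplant. Ifi202b encodes an interferon-inducible DNA-binding protein of the HIN-200 family, whose level is known to differ between inbred strains and to be low in C57BL/6. Ccnb1ip1 encodes the ubiquitin ligase HEI10, which is needed for meiotic crossing over. Emp1 encodes a tetraspan membrane protein of the PMP22 family. Hebp1 encodes a haem-binding protein, and Rpgrip1 a scaffold of the photoreceptor connecting cilium. Sash1 encodes a scaffold protein with SAM and SH3 domains, and C1qtnf12 a secreted protein related to C1q and TNF.

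RefSeq promoter windows of assembly GRCm38.p6, which is of the C57BL/6J strain, matched 6 of the 7 genes, and the 250 bases before the start site were read on the strand of the gene. Both strands were searched for GAAANNGAA (the core bound by interferon regulatory factors), TTCNNNGAA (the GAS element bound by STAT proteins), TATAAA (the TATA box), GGGCGG (the GC box), CCAAT (the CCAAT box) and CACGTG (the E-box). The windows of the 3 genes with higher allogeneic signal are shown, with that of Hebp1, which lies near Emp1 and was lower. Capitals mark the motif matches. They are, in this order, chr1:173982845-173983094 on the minus strand, chr14:50795729-50795978 on the minus strand, the first of both windows of Emp1 at chr6:135362681-135362930 on the plus strand, and chr6:135168216-135168465 on the minus strand.
Ifi202b: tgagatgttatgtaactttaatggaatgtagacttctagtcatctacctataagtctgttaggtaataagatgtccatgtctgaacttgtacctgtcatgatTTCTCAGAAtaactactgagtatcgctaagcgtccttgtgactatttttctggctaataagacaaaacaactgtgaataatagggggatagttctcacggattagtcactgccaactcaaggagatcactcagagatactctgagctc
Ccnb1ip1: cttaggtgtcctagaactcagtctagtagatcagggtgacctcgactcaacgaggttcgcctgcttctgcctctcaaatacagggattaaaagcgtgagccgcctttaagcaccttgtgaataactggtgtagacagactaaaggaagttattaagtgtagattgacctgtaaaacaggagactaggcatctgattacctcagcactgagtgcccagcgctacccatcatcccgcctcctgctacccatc
Emp1: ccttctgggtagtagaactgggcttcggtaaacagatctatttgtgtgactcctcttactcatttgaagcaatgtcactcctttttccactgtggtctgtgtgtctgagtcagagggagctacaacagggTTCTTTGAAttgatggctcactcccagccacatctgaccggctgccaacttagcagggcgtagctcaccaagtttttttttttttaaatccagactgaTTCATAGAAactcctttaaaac
Hebp1: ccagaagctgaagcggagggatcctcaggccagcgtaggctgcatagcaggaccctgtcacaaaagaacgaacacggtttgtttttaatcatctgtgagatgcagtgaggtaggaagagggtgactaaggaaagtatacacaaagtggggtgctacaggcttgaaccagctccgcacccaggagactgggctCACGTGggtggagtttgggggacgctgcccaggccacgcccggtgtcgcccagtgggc

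The Ifi202b window held 1 GAS match, which ended 139 bases before the start site, and no match to the interferon regulatory core. The first Emp1 window held 2 GAS matches, 111 and 13 bases before the start site, and the second Emp1 window held none of the 6 motifs. Over the 32851 windows of the table, 7.02% held a GAS match and 7.13% held the interferon regulatory core. The Hebp1 window held 1 E-box, found in 6.02% of all windows. The windows of Ccnb1ip1 and Sash1 held none of the 6 motifs. That of Rpgrip1 held 1 TATAAA match and 2 CCAAT matches, which 12.4% and 33.8% of all windows hold. The GC box, present in 32.7% of all windows, was in none of these. GC content ran from 38.4% in Ifi202b to 64.8% in Sash1, against a median of 52.4% over all windows, and CpG dinucleotides from 3 to 15 per window against a median of 6. The windows are the letters of the B6 reference, and the C3H/HeN letters were not used here.

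Ifi202b (probe set 1421551_s_at) gave a MAS5 signal of 44.4 in the syngeneic sample, 1474 and 1526 with isotype, 1391 and 1495 with anti-ICOSL from day 0, and 1007 and 1179 with anti-ICOSL from day 3. The syngeneic value lay below the 40th percentile of all signals, 99.7, and all 6 allogeneic values lay far above it. The isotype mean was 1500 ± 36.6 (SD, n = 2), higher than syngeneic by 4.04 ± 0.20 (SE) on the log2(signal + 50) scale, or 16.4-fold on that scale. All folds of the 7 genes are given on that scale and are smaller than those of the signals themselves. The day 3 arrays were the lowest of the allogeneic arrays, at -0.44 ± 0.17 against isotype, without overlap, and the day 0 arrays differed from isotype by -0.06 ± 0.17. The suffix of this probe set marks probes that can match transcripts of several related genes, so its signal may hold near-identical HIN-200 copies.

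Ccnb1ip1 (1435998_at) stood at 4.53 on the syngeneic array. It stood at 736 and 685 with isotype, 1005 and 918 with anti-ICOSL from day 0, and 964 and 1061 with anti-ICOSL from day 3. Both anti-ICOSL groups lay above both isotype arrays, by 0.41 ± 0.16 and 0.48 ± 0.16 (log2, SE). The isotype mean of 711 ± 35.6 was higher than syngeneic by 3.80 ± 0.20, or 13.9-fold on the log2(signal + 50) scale. Emp1 (1416529_at) had the lowest syngeneic signal of the 3, at 1.43. Its allogeneic signals were 574 and 567 with isotype, 879 and 691 from day 0, and 521 and 577 from day 3. Day 0 lay above isotype by 0.42 ± 0.18, while day 3 overlapped isotype, with a difference of -0.05 ± 0.18. The step from syngeneic to isotype was 3.59 ± 0.22, or 12.1-fold on the same scale. A single probe set measured each of these 3 genes, so no second probe set bears on the step.

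C1qtnf12 had 4 probe sets, and 3 of them showed the step. Probe set 1417393_a_at gave 6630 on the syngeneic array against 447 and 198 with isotype, 316 and 379 from day 0, and 358 and 265 from day 3. The isotype arrays were lower by 4.25 ± 0.42 (log2, SE), or 19-fold. Probe set 1448687_at gave 2971 against 349 and 236, 306 and 329, and 462 and 423 in the same order, and was lower by 3.16 ± 0.25. Probe set 1439422_a_at gave 2019 against 37.5 and 53.4, 2.51 and 49.2, and 45.4 and 53.9, and was lower by 4.44 ± 0.38, or 21.8-fold. Of the 4 probe sets, 1439422_a_at alone had all 6 allogeneic signals below the 40th percentile. On the other stepped probe sets, 1417393_a_at and 1448687_at, every allogeneic array kept a signal of at least 198. The fourth, 1455264_at, gave 194 on the syngeneic array and between 89.7 and 254 on the allogeneic arrays, with overlap and a difference of -0.32 ± 0.30. Probe sets of this gene disagreed on both the size of the step and the level left on the allogeneic arrays.

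Rpgrip1 also had 4 probe sets, and only 1421144_at showed the step. It gave 2949 on the syngeneic array, 141 and 179 with isotype, 235 and 121 from day 0, and 157 and 189 from day 3. All 6 allogeneic values stayed above the 40th percentile. The isotype mean of 160 ± 26.3 (SD, n = 2) was lower by 3.84 ± 0.33, or 14.3-fold. Probe set 1454231_a_at gave 141 on the syngeneic array and 34.1, 114, 24.8, 77.6, 13.9 and 37 on the isotype, day 0 and day 3 arrays, a difference of -0.70 ± 0.49. The remaining pair, 1431357_a_at and 1451785_at, stayed at or below 46.6 on all 7 arrays and did not pass the filter on low signals. The high syngeneic level of Rpgrip1 thus rests on 1 of its 4 probe sets.

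Hebp1 and Sash1 had 1 probe set each and varied most among the allogeneic arrays. Hebp1 (1418172_at) gave 2502 on the syngeneic array, 338 and 88.4 with isotype, 265 and 339 from day 0, and 153 and 211 from day 3. The isotype mean of 213 ± 177 (SD, n = 2) was lower by 3.46 ± 0.57, or 11-fold, and 5 of the 6 allogeneic values were at or above the 40th percentile. The Hebp1 difference was -4.20 without the first isotype array and -2.72 without the second. Sash1 (1448005_at) gave 1788 on the syngeneic array, 154 and 71.5 with isotype, 168 and 272 from day 0, and 139 and 20.6 from day 3. Its isotype mean was 113 ± 58.1, lower by 3.55 ± 0.61 or 11.7-fold, and 4 of the 6 allogeneic values were at or above the 40th percentile. The 6 allogeneic arrays spanned 1.49 log2 units for Hebp1 and 2.19 for Sash1. Both spans exceed 1.33, the 90th percentile of this range over all tested probe sets, whose median was 0.62.

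**Figure D1:**
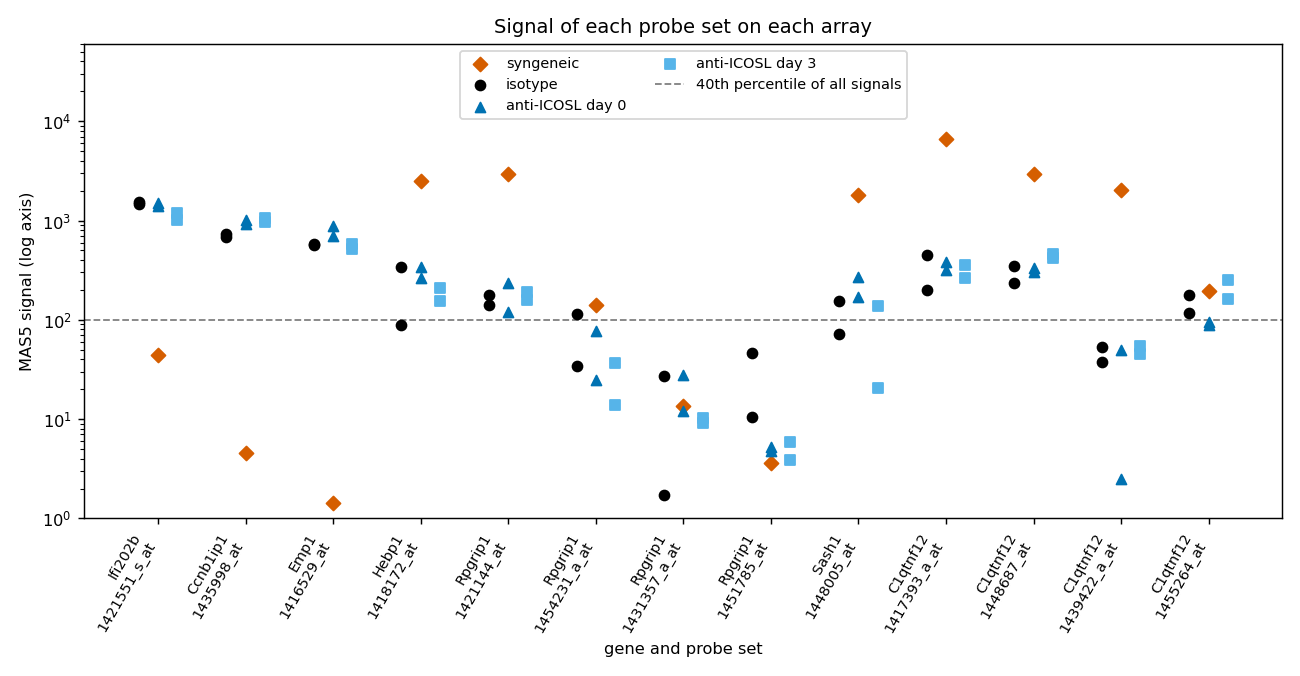
Signal of the 13 probe sets of the 7 genes on each of the 7 arrays, on a log axis, with groups by marker and the 40th percentile of all signals (99.7) dashed. The syngeneic array is far below all allogeneic arrays for Ifi202b, Ccnb1ip1 and Emp1 and far above them for 6 probe sets of the other genes, while the last 3 Rpgrip1 probe sets and C1qtnf12 1455264_at show no such step.

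In all, 9 of the 13 probe sets had a gap of at least 2 log2 units between the syngeneic array and the nearest allogeneic array, and 11 passed the filter. A gap of that size was found for 85 of the 12394 genes (0.686%), and the on-off pattern, which also asks for a range of at most 1 over the allogeneic arrays and a low side below the 40th percentile, for 24 (0.194%). The choice of the genes fixed these counts for them. The gaps of the 9 probe sets ran from 2.51 to 4.32. Across the antibody schedules, the day 0 arrays differed from isotype by -0.40 to 0.75 over these 9 probe sets, with 7 higher and 2 lower, and the day 3 arrays by -0.45 to 0.54, with 5 higher and 4 lower. In each comparison 3 of the 9 had arrays that did not overlap with isotype, against 35.5% of all tested probe sets for day 0 and 43.1% for day 3, so these counts are near the background. Both comparisons share the isotype arrays. Over all 15372 tested probe sets, limma called 0 (0%) in either schedule comparison, with the smallest adjusted p at 0.0853 for day 0 and 0.0971 for day 3. At an unadjusted p under 0.05 the counts were 1103 and 1573.

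**Figure D2:**
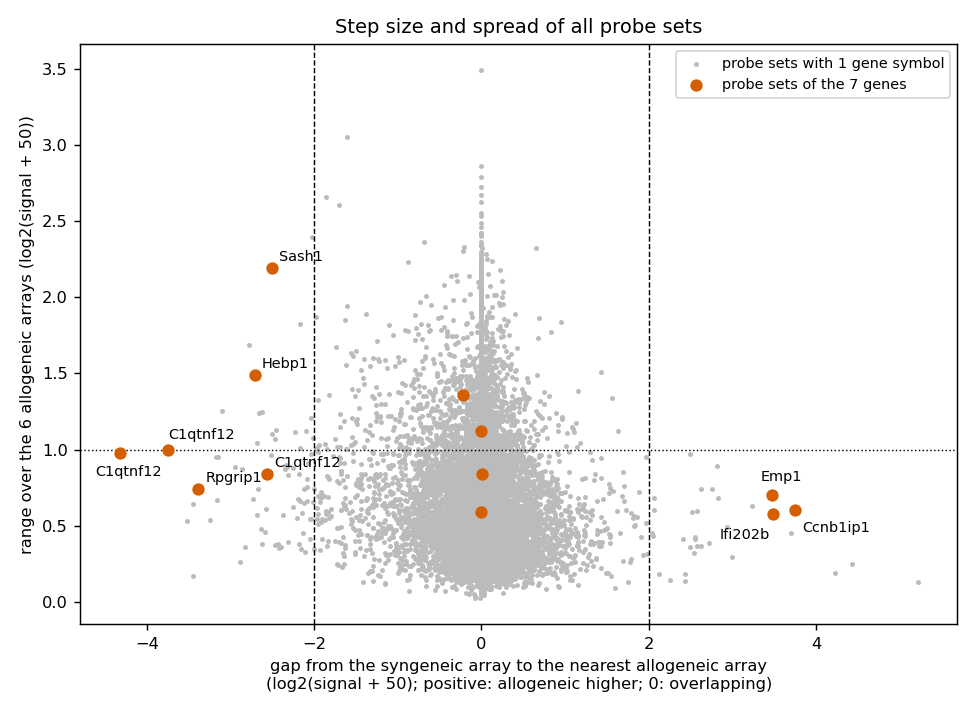
Gap from the syngeneic array to the nearest allogeneic array (x axis, log2(signal + 50), 0 where they overlap) against the range over the 6 allogeneic arrays (y axis) for each probe set with 1 gene symbol, with the 7 genes in orange. Their 9 stepped probe sets lie beyond the dashed lines at a gap of 2, and those of Sash1 and Hebp1 lie above the dotted line at a range of 1.

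The stepped genes were set against their chromosomal neighbours, the 5 measured genes on each side, at the brightest probe set of each gene, to see whether whole segments moved together. Of 63 such genes, 46 were tested against syngeneic, and 3 rose and 3 fell in limma at an adjusted p under 0.05. Over all tested genes, 2.66% were called higher and 4.28% lower, and over all tested probe sets 6.62% were called in either direction. At these probe sets none of the 63 had the on-off pattern, and the widest gap was 1.23. Over all 98 probe sets of the neighbours, 65 were tested, of which 4 rose and 4 fell, and 1 had a gap of at least 2, a second probe set of Ifi209 near Ifi202b (-2.82), while none had the on-off pattern. The median size of their difference was 0.41 log2 units, against 0.34 over all tested genes, and 9 of 46 differed by at least 2-fold, against 11.1% of all genes. The neighbours that rose were Tnfrsf4 and Tnfrsf18, which encode the T cell costimulators OX40 and GITR and lie beside C1qtnf12, and Supt16, a subunit of the histone chaperone FACT, beside Rpgrip1. Tnfrsf4 rose from 1113 to 3177 ± 117 (SD, n = 2), by 1.47 ± 0.20 (limma adjusted p = 0.0126), and Tnfrsf18 from 1032 to 2576 ± 182, by 1.28 ± 0.19 (adjusted p = 0.0162). Without the second isotype array their adjusted p-values were 0.0525 and 0.0634. The neighbours that fell were Plbd1, a phospholipase-like lysosomal protein, near Emp1 (by 1.29 ± 0.21, adjusted p = 0.0195), and the small GTPases Rab32 beside Sash1 (by 1.39 ± 0.23, adjusted p = 0.022) and Rab2b near Rpgrip1 (by 1.05 ± 0.20, adjusted p = 0.0317). Plbd1 and Rab32 lost their calls without either isotype array, at adjusted p-values of up to 0.0663 and 0.0797. At their brightest probe sets, Supt16 (0.97 ± 0.19, adjusted p = 0.036) and Rab2b lost theirs whichever allogeneic array was left out, at up to 0.0955 and 0.0985. The second Supt16 probe set gave 104 on the syngeneic array and 554 to 814 on the allogeneic arrays, and rose by 2.16 ± 0.26 (adjusted p = 0.00831), with a gap of 1.97, in the direction opposite to Rpgrip1.

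The nearest neighbours were mixed, and some differed by more than 2-fold while others differed little. Mndal, the HIN-200 gene next to Ifi202b, gave 4358 on the syngeneic array and 2038 ± 621 with isotype, a difference of -1.11 ± 0.48 in the direction opposite to Ifi202b (limma adjusted p = 0.232). Its other probe set gave 2757 against 1143 and 1505 with isotype, a difference of -1.04 ± 0.24 (limma adjusted p = 0.0591). Grin2b, next to Emp1, differed by -1.14 ± 0.38 at low signals, 117 on the syngeneic array and 13.4 to 90.4 on the allogeneic arrays. Its other probe set, below the filter, gave 8.39 against 10.8 to 151. Ccnb1ip1 lies between Ttc5, at 429 against 602 ± 12.9 (0.44 ± 0.21, adjusted p = 0.279), and Parp2, at 1096 against 1001 ± 129 (-0.13 ± 0.24, adjusted p = 0.795). Tab2, next to Sash1, differed by -0.07 ± 0.20, and Hnrnpc, next to Rpgrip1, by 0.23 ± 0.22. Hebp1 and Emp1 lie close on chromosome 6 with 3 measured genes between them, yet Hebp1 was lower and Emp1 higher in the allogeneic spleens. The one gene between them that passed the filter, Fam234b, gave 559 against 581 ± 31.8, a difference of 0.05 ± 0.22. Ccnb1ip1 and Rpgrip1 share chromosome 14, with 16 measured genes between them. Of these, 10 were tested, none was called (0 at an adjusted p under 0.05), and their differences ran from -0.71 to 0.36.

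**Figure D3:**
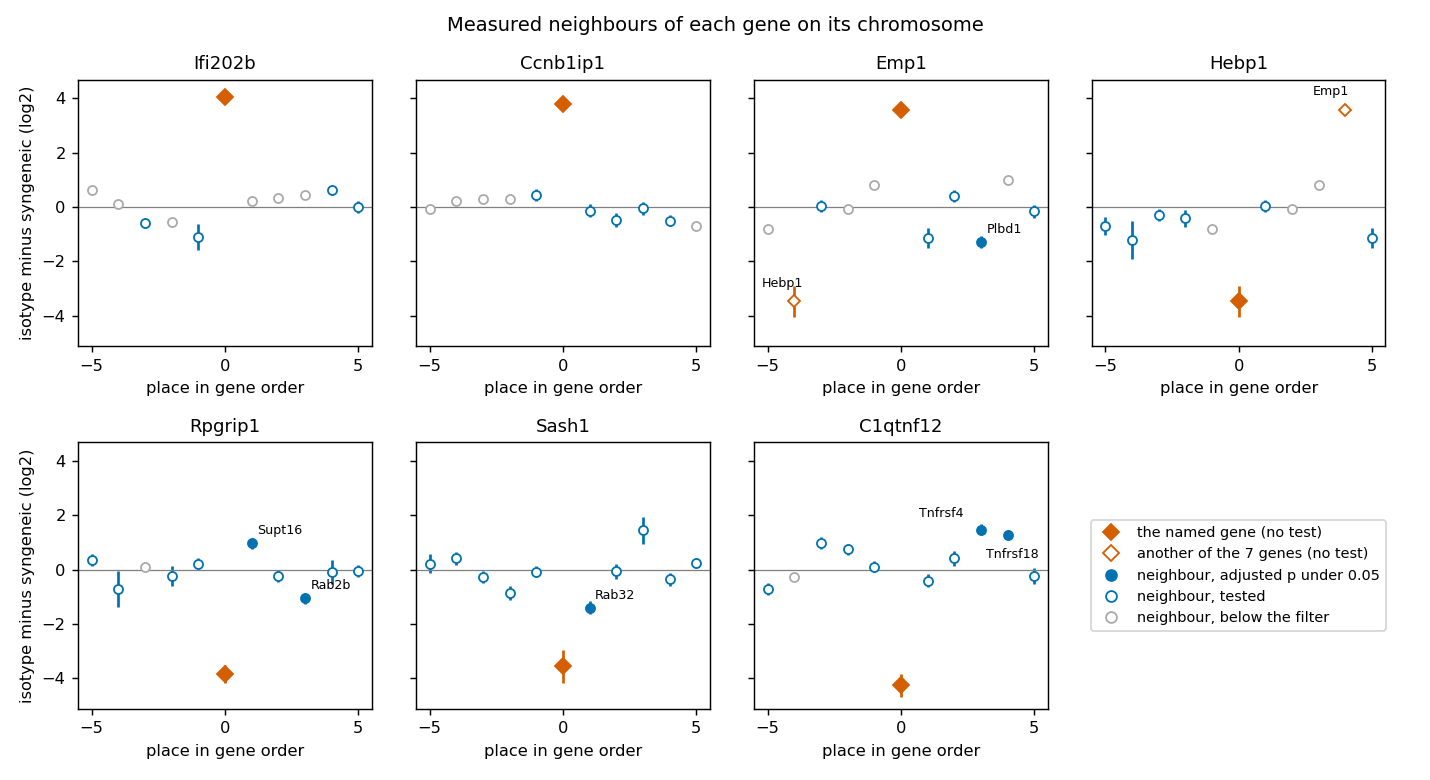
Difference of isotype from syngeneic (log2, with the SE of the fit as bars) for each of the 7 genes and the 5 measured genes on either side in chromosomal order, at the brightest probe set of each gene. At these probe sets the 7 genes lie at 3.46 units or more from 0 and the tested neighbours within 1.47 units, with the called ones named. The 7 genes were chosen for a wide step on this contrast, so their distance from the neighbours is no test. Further probe sets of Ifi209 (-3.05) and Supt16 (2.16) are not drawn.

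Relatives of the genes seldom shared their step. In the HIN-200 family around Ifi202b, 4 of 13 listed genes had a probe set, 2 were tested at their brightest probe set, and limma called 0 of them. Ifi204 gave 56.3 on the syngeneic array and 19.4 and 27.4 with isotype, and Aim2, the cytosolic DNA sensor, 61.3 against 22.6 and 156, both below the filter. Ifi209 was split between its probe sets. Probe set 1435331_at gave 2692 against 1720 and 1825 (-0.59 ± 0.19, adjusted p = 0.131), whereas 1435330_at gave 4089 against 499 and 406 and fell by 3.05 ± 0.23 (adjusted p = 0.00242). Thus a direct relative of Ifi202b carried a wide step in the opposite direction at 1 of its 2 probe sets. That probe set was singled out after its values were seen.

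Of the PMP22 family, Emp3 gave 1760 on the syngeneic array against 1582 and 1730 with isotype (-0.09, limma adjusted p = 0.832), Pmp22 differed by 0.21 (adjusted p = 0.64) and Emp2 by 0.32 (adjusted p = 0.637). Hebp2, the paralogue of Hebp1, differed by -0.16 at its brighter probe set (adjusted p = 0.89), with overlap. At its other probe set it gave 118 on the syngeneic array and 18.6 to 79.1 on the allogeneic arrays, without overlap (-0.92 ± 0.41, adjusted p = 0.251). The lymphocyte adaptors Sash3 and Samsn1, of the same family as Sash1, differed by 0.09 (adjusted p = 0.86) and 0.23 (adjusted p = 0.646). Of 7 tested meiotic crossover genes, only Msh5 passed, at 128 against 319 ± 46.7 (1.05, adjusted p = 0.0364), with a median over the 7 of -0.15, and it lost its call whichever allogeneic array was left out, at an adjusted p of up to 0.105. Of the ciliary genes listed with Rpgrip1, the only one tested was Ahi1, at 1.73 (adjusted p = 0.167). Of 12 genes listed as relatives of C1qtnf12, 8 were measured and 4 tested, and 0 had a gap of at least 2 at the brightest probe set. C1qa, C1qb and C1qc, the chains of complement C1q made by macrophages, fell from 6722, 5878 and 6273 to 1197 ± 145, 1017 ± 88.5 and 1002 ± 27.3, by 2.45, 2.48 and 2.59 (adjusted p = 0.00304, 0.00267 and 0.00245). All of these chains are also among the macrophage markers below. C1qtnf6, the only other relative tested, differed by -0.10 (adjusted p = 0.934). C1qtnf1, C1qtnf3, C1qtnf4 and Adipoq did not pass the filter.

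The on-off pattern of 4 of the genes was shared by 20 others, 11 higher and 9 lower, chosen by the same gap and given without a test. The widest steps upward were at a probe set of the MHC class I gene H2-D1 (38.7 on the syngeneic array and 3242 to 3548 on the allogeneic arrays), at the interferon-induced GTPase Gbp2b (65.2 against 2438 to 2912) and at Zbtb32, a repressor induced in activated lymphocytes (70.9 against 1524 to 2105). Next came Havcr2, the inhibitory receptor TIM-3 (57.1 against 769 to 1099), the T cell cytokine Il21 (4.43 against 337 to 572) and Pdcd1, the inhibitory receptor PD-1 (58.9 against 720 to 1380). Downward, the widest steps were at Igfbp4, which binds insulin-like growth factors (820 against 20.7 to 29.4), the fatty acid hydroxylase Cyp4f18 (433 against 4.61 to 15.5) and Wdfy3, an autophagy scaffold (441 against 10.9 to 29.3). They were followed by Adgre4, a macrophage adhesion receptor (749 against 38.1 to 84.4), the peroxidase Prdx2 (747 against 21.4 to 89) and the transcription factor Klf9 (371 against 12 to 29.6).

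Second probe sets of the same genes gave a further measure of the step. Of the 20 genes, 11 had other probe sets. In 8 of the 11, at least 1 other probe set moved the same way by at least 2-fold, and in 3, Pdxdc1, Dsp and Prdx2, none did. The other Prdx2 probe set differed by -0.45. Of the 6 other Klf9 probe sets only 1 moved the same way by at least 2-fold, and they ran from -1.53 to 0.50. All 5 other Igfbp4 probe sets were lower, at -3.69 to -2.65 log2 units. The 8 others of H2-D1 ran from -2.74 to 1.96, so probe sets assigned to the same class I gene pointed both ways and give no single direction for it. Whether their probes match this gene alone was not checked. None of the 20 lay among the 5 measured neighbours on either side of the 7 genes.

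Genes of the MHC haplotype, which differs between B6 and C3H/HeN, were measured beside these. At the brightest probe set of each, H2-Ea rose (56.1 against 300 and 245, by 1.60 ± 0.26, limma adjusted p = 0.0202), and H2-Ab1 (-2.33, adjusted p = 0.0122), H2-K1 (-1.76, adjusted p = 0.00563) and H2-D1 (-2.57, adjusted p = 0.00242) fell, 4 of 6 tested. The direction for the class I genes depended on the probe set. Other H2-K1 probe sets ran from -3.70 to 0.23, and H2-D1 was higher by 5.31 at its probe set with the on-off pattern. H2-Ea encodes the class II E alpha chain, which B6 mice do not make. Its call was lost without either isotype array, at an adjusted p of up to 0.0701. Of 17 tested interferon gamma response genes, 3 rose (Gbp2, Psmb9 and Socs1, by 1.08, 0.97 and 1.01, adjusted p = 0.0242, 0.0351 and 0.0477) and the median was 0.70, against -0.01 over all tested genes. Between 0 and 1 of the 17 rose when any 1 allogeneic array was left out. Of 17 tested type I interferon response genes, Rsad2 fell from 1464 to 565 ± 83.7 (-1.31, adjusted p = 0.0273), none rose, and the median was -0.23. The Rsad2 call was lost whichever allogeneic array was left out, at an adjusted p of up to 0.082.

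Macrophage, neutrophil and erythroid markers were mostly lower in the allogeneic spleens, while markers of the other cell types moved less. None of the measured T cell and macrophage markers, and 1 of 11 B cell markers, lay below the 40th percentile on every array, as fits spleen cells. Of 20 tested macrophage markers 18 fell (median -2.49), and their summed signal was 92390 on the syngeneic array and 11954 to 20004 on the allogeneic arrays. The transcription factor Spic and the iron exporter Slc40a1, both typical of red pulp macrophages, fell from 2262 to 172 ± 40.7 and from 10891 to 826 ± 70.8, by 3.39 and 3.65 (limma adjusted p = 0.00815 and 0.00135). At the brightest probe set of each marker, 8 of the 20 measured macrophage markers had a gap of at least 2, among them Hmox1 (-2.74), Slc40a1 (-2.68), Spic (-2.67) and Vcam1 (-2.50), beside -2.71 for Hebp1 and -2.51 for Sash1. The neutrophil marker Camp had one of -2.31. These steps are near in size to those of Hebp1 and Sash1, and the part of cell numbers in the steps of Hebp1, Rpgrip1, Sash1 and C1qtnf12 was not tested. Neutrophil markers fell in 9 of 13 tested (43070 against 11495 to 15380 summed) and erythroid markers in 8 of 11 (25152 against 5633 to 9211). With any 1 allogeneic array left out, 17 to 18 macrophage, 6 to 8 neutrophil and 4 to 7 erythroid markers fell.

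On the higher side, T cell markers rose in 3 of 14 tested (Cd4, Thy1 and Cd247, median 0.28, 37231 against 45718 to 57160 summed) and proliferation genes in 4 of 19 (median 0.83, 42069 against 69464 to 75922). The T cell markers did not move alike, with 10 of the 14 higher and 4 lower, of which limma called 0 as lower. Their widest difference was downward, at Trat1 (195 on the syngeneic array against 4.08 to 73.1 on the allogeneic arrays, -1.67 ± 0.60). With 1 allogeneic array left out, 1 to 2 T cell markers and 0 to 2 proliferation genes rose. Of 10 tested B cell markers 2 fell (32230 against 14067 to 21532 summed), and 0 to 1 did with 1 allogeneic array left out. Of 7 natural killer cell markers 1 fell, the Ly49 receptor gene Klra7 (471 against 44.4 ± 9.53, -2.47, adjusted p = 0.00449). Its receptor family is also known to vary between strains. Of 10 tested stroma and endothelium markers limma called 0, with a summed signal of 2208 against 1920 to 3042. The part of T cell numbers and of proliferation in the higher signals of Ifi202b, Ccnb1ip1 and Emp1 was not tested. None of the T cell, B cell and erythroid markers had a gap of at least 2 from the syngeneic array at its brightest probe set.

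**Figure D4:**
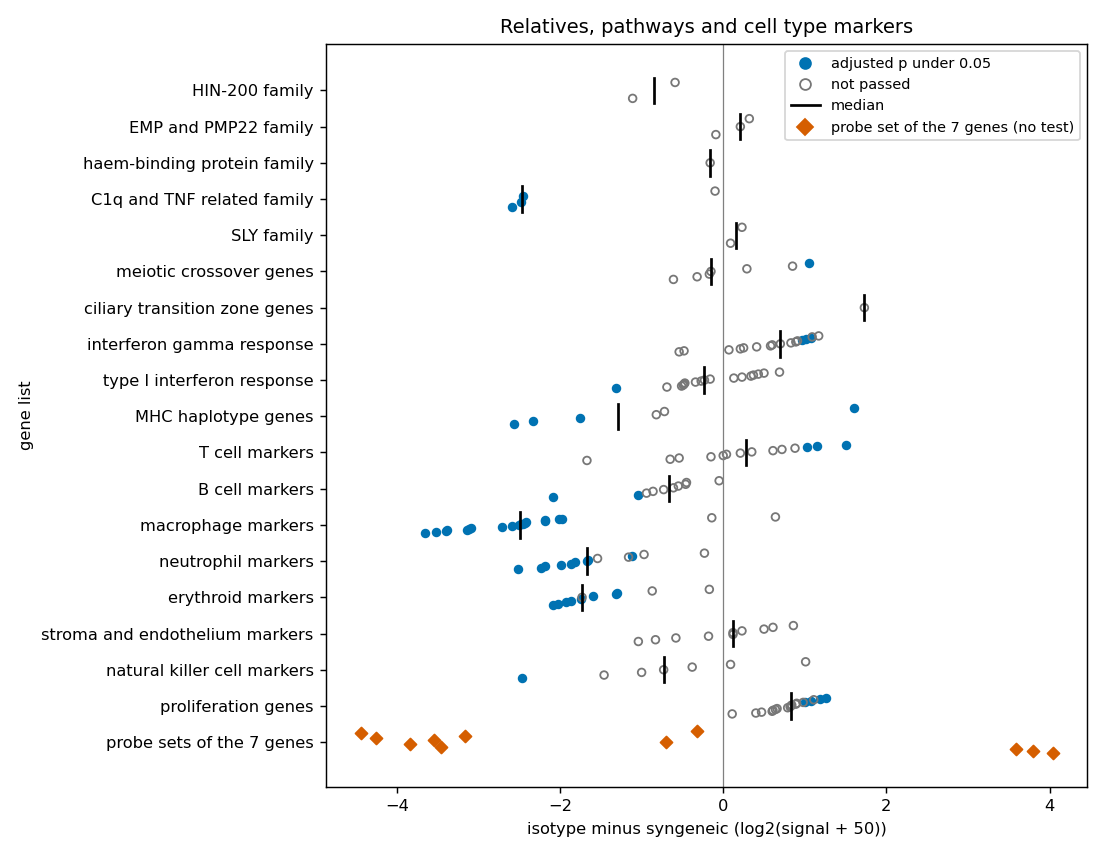
Difference of isotype from syngeneic for the tested genes of each list, 1 probe set per gene, with called genes filled, a bar at the list median, and the tested probe sets of the 7 genes in orange. Macrophage, neutrophil and erythroid markers lie to the left with medians of -2.49, -1.67 and -1.73. At the probe sets drawn, 3 of the 7 genes, which were chosen on this contrast, lie to the right of all list genes. A further H2-D1 probe set (5.31) is not drawn.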

How the data were processed

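The deposited values are linear signal intensity, 1 value a probe set, made by the authors with MAS5 per the submitters' processing notes, which give no version. The array medians ran from 145 to 174, and no further scaling was applied. Precision is limited by how few arrays there are. Of 22626 probe sets that are no manufacturer controls, 20380 had 1 symbol. Signals were analysed as log2(signal + 50), so changes of low signals are understated. Testing was limited to probe sets for which a group mean reached the 40th percentile of all signals. One fit over the 7 arrays and 4 groups was made with limma 3.58.1 (R 4.3.3) and left 3 residual degrees of freedom, so the syngeneic array borrows the spread of the other groups. Two-sided p-values were adjusted (Benjamini-Hochberg) over all 15372 tested probe sets and called under 0.05. Lists and neighbours used the probe set with the highest mean signal per gene. Neighbours came from the gene order of GRCm38.p6, which held 12369 measured genes. Genes with a like pattern were named by the widest gap, 6 in each direction. The 7 genes and all lists were chosen with earlier results of these data known. Alternatives were other pseudocounts, filters, scalings and limits of the pattern, a fit with replicate blocks, a fit to the 2 groups alone, the mean of the 3 allogeneic groups, and leaving out each allogeneic array.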

Additional observations from a re-analysis of the deposited data

How the results depend on the processing

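All 9 stepped probe sets of the 7 genes kept their direction under every alternative run, with sizes from 2.72 to 5.14 log2 units. The choice of the genes on these same signals fixed that direction in advance. That it held is therefore no test of the step. Of the genes, 3 to 4 kept the on-off pattern. The number of genes with that pattern was 24, and became 42 with a pseudocount of 16, 14 with the low side below the 25th percentile and 46 with a gap of 1.5, and it ran from 24 to 29 when an allogeneic array was left out. Calls between isotype and syngeneic numbered 1017, against 1616 with the filter at the 60th percentile, 542 with no filter, 568 in a fit to the isotype and syngeneic arrays alone, and 410 to 692 when an allogeneic array was left out, fewest without the second isotype array. Against isotype, day 0 gave 3 calls with a pseudocount of 100 and 13 with the 60th percentile filter, and day 3 gave 2 and 8. Leaving out a day 0 or day 3 array does not change the difference of isotype from syngeneic, only its error and the set of tested probe sets. The causes of the shifts in these counts were not tested further. With the replicate block both schedule comparisons had 0 calls. Samples with the same number did not deviate together (correlations of -0.0122, 0.0746 and 0.0436). The spread between arrays may be technical, so these correlations cannot show whether such samples share more than a number. The syngeneic side is 1 array, which no alternative can leave out, and probe sets near background on either side give only a rough fold.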
